A study of Mus musculus with 6 samples.

Results

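Cholesterol and fatty acid synthesis was followed through 8 genes in RAW 264.7 cells, a mouse macrophage line, and 6 of them were measured. They were taken by gene symbol, and each measured gene (Hsd17b7, Fdft1, Idi1, Sqle, Srebf1 and Scd1) had 1 probe among 10698 genes named on the array, of which 10088 could be tested. Hmgcs1 and Insig1 were not analysed here. Treated cells had spent 8 h with 100 ng/ml lipopolysaccharide (LPS) plus 100 pM of LPS-binding protein, and untreated cells 8 h without either. LPS, a glycolipid of the Gram-negative outer membrane, is sensed by Toll-like receptor 4 after LPS-binding protein has passed it to CD14. Total RNA of treated and untreated cells was hybridised together on 6 two-colour arrays in 3 numbered sets, each with 1 array carrying treated RNA in Cy5 and 1 carrying it in Cy3. All samples came from 1 cell line. The sample records name it 264.7 in 42 places and 264.4 in 6, and 264.7 is used here. Whether the sets were separate cultures is not stated, and p-values therefore reflect the spread over sets, which may be technical.

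Cells make cholesterol from acetyl-CoA through mevalonate, squalene and lanosterol, and the same precursors feed protein prenylation. Transcription of these enzymes is driven by the sterol regulatory element-binding proteins (SREBPs), membrane-bound factors that the escort protein Scap carries to the Golgi for cleavage when sterols are low and that Insig proteins hold back when sterols are high. The SREBP made from Srebf1 acts mainly on fatty acid synthesis and desaturation, and the SREBP made from Srebf2 mainly on sterol synthesis. In macrophages, liver X receptors, which sense oxysterols, also raise Srebf1 and Scd1.

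Promoter windows from RefSeq (GRCm38.p6, 250 bases before to 50 after a transcription start) were available for 5 of the 8 genes, Hsd17b7, Idi1, Srebf1, Hmgcs1 and Insig1, with Srebf1 having 3. Capitals mark letters that match 1 of 4 motifs searched on both strands. These were the sterol element TCACNCCAC, the E-box CACGTG that SREBPs can also bind, the NF-Y box CCAAT and the Sp1 box GGGCGG. NF-Y and Sp1 are common partners of SREBPs. The windows shown belong to the 2 measured sterol synthesis genes with an entry and to Srebf1, for which the window with both NF-Y and Sp1 boxes was taken. Hsd17b7 lies at chr1:169969156-169969455 on the minus strand, Idi1 at chr13:8885356-8885655 on the plus strand and this Srebf1 window at chr11:60210422-60210721 on the minus strand.
Hsd17b7: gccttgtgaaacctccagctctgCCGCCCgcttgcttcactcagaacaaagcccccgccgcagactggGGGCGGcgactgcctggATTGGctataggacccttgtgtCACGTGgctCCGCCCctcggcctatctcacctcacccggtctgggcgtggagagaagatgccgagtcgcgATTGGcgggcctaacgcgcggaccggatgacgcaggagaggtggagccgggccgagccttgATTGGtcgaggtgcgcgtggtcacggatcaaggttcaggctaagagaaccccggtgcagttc
Idi1: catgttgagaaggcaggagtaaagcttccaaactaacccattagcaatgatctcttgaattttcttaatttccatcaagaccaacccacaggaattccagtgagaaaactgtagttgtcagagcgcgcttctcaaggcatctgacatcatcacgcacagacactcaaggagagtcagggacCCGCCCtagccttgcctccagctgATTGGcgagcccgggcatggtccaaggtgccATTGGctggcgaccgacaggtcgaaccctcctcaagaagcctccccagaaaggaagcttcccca
Srebf1: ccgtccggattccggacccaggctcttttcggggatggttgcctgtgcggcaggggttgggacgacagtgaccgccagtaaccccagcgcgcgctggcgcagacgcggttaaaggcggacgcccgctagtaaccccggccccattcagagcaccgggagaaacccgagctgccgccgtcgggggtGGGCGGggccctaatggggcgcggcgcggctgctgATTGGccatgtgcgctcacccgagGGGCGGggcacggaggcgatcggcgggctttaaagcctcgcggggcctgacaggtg

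The Hsd17b7 window held 1 E-box, 143 bases before the start, with an NF-Y box on one side and an Sp1 box on the other. It held 3 NF-Y boxes and 3 Sp1 boxes in all. The Idi1 window held 2 NF-Y boxes, 45 and 14 bases before the start, and 1 Sp1 box. The Srebf1 window, picked for holding both kinds of box, held 1 NF-Y box, 30 bases before the start, between 2 Sp1 boxes. Of the Srebf1 windows not shown, 1 held 1 NF-Y box and no Sp1 box, and 1 held 3 Sp1 boxes and no NF-Y box. Of all 32851 windows, 7.15% held an E-box, 37.4% an NF-Y box and 35.7% an Sp1 box. The sterol element was found in 1.24% of windows, and among the windows of these genes in that of Hmgcs1 alone, as TCACCCCAC, 137 bases before the start. A match is a string of letters and not a measured binding site.

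The arrays gave 1 log2 ratio per probe, turned here so that a positive value is higher in treated cells. The direction is a likely one. It was taken as Cy5 over Cy3 since Cy3 is named control and Cy5 test in the labels, and every sign below would turn if the ratio ran the other way. By limma on 3 set means, 3448 of 10088 genes (34.2%) had a Benjamini-Hochberg adjusted p under 0.05, of which 1750 (17.3%) were higher and 1698 (16.8%) lower in treated cells, and without set 3 the total was 2009. In the direction used, the inflammatory genes Tnf, Il6, Il1b, Nos2 and Ifnb1 all rose, with log2 ratios from 1.17 to 4.30. These 5 were included as a check of the treatment, and in the opposite direction all of them would have fallen. A ratio holds no level, so the macrophage label could not be checked by presence of markers. Of 8 macrophage markers tested, 4 rose and 2 fell, with ratios from -0.72 to 2.11, and of 7 markers of other cells, limma called 0 and 0 had an unadjusted p under 0.05. In total RNA, fewer expressing cells and less RNA per cell cannot be told apart.

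Among the 6 genes, the sterol synthesis enzymes ran from clearly higher in treated cells to no called change, while the fatty acid desaturase Scd1 and the regulator Srebf1 were lower. Hsd17b7, Fdft1 and Idi1 rose, Scd1 and Srebf1 fell, and Sqle did not pass the test. That is 5 of 6 genes called, against 34.2% of all genes, and 5 of 6 with the same sign on all 6 arrays, against 35.2% of the 9192 genes measured on all of them. Of the 5, 3 were higher on every array, as were 17.8% of those genes, and 2 were lower on every array, as were 17.4%. The median log2 ratio of the 6 genes was 0.20, and that of all genes tested was -0.01. None of the 36 values of these genes was listed at exactly 0, the value treated as not measured.

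Idi1 encodes isopentenyl diphosphate isomerase, which interconverts the building blocks of all isoprenoids. Its log2 ratios were 0.26, 0.36 and 0.20 with treated RNA in Cy5 (sets 1, 2 and 3) and 0.24, 0.38 and 0.23 with treated RNA in Cy3. All 6 arrays were higher in treated cells, and both orientations averaged 0.28. The mean over sets was 0.28 ± 0.08 (SD, n = 3 sets), a 1.21-fold rise with limma's adjusted p = 0.00827.

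Fdft1 encodes squalene synthase, which joins 2 farnesyl diphosphate molecules and commits them to sterols. It had log2 ratios of 0.62, 0.58 and 0.53 with treated RNA in Cy5 and of 0.45, 0.56 and 0.47 with treated RNA in Cy3. These 6 values lay close together and all were higher in treated cells. Fdft1 averaged 0.54 ± 0.03 over the 3 sets, or 1.45-fold, with limma's adjusted p = 0.000393.

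Sqle encodes squalene epoxidase, the next enzyme and a rate-limiting one of the sterol branch. Its values were -0.07, -0.05 and 0.03 with treated RNA in Cy5 and 0.09, 0.38 and 0.30 with treated RNA in Cy3. The ratio thus lay near 0 in one dye orientation and above 0 in the other, and the orientations did not overlap. The mean was 0.11 ± 0.09 (SD, n = 3 sets), with a 95% interval of -0.02 to 0.24 and limma's adjusted p = 0.16. This interval includes no change and also a rise nearly as large as that of Idi1, and the mean was -0.03 on the Cy5 arrays alone.

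Hsd17b7 encodes a hydroxysteroid dehydrogenase that reduces the 3-ketosterol formed when methyl groups are removed from lanosterol derivatives, and it also activates estrone. Its log2 ratios were 0.69, 0.41 and 0.60 with treated RNA in Cy5 and 0.52, 0.82 and 0.71 with treated RNA in Cy3. It was higher in treated cells on 6 of 6 arrays. The mean was 0.62 ± 0.03 (SD, n = 3 sets), or 1.54-fold, with limma's adjusted p = 0.000209, and 511 of the 10088 genes tested had a larger ratio. Its high and low arrays offset each other within sets, so that the SD over sets is much smaller than the SD of 0.14 and 0.15 over the 3 arrays of each orientation. With the 6 arrays as separate replicates, limma's adjusted p was 0.000216.

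Scd1 encodes stearoyl-CoA desaturase, which turns saturated into monounsaturated fatty acids. Its log2 ratios were -0.68, -0.66 and -0.62 with treated RNA in Cy5 and -0.96, -0.91 and -0.82 with treated RNA in Cy3. Every array was lower in treated cells, and the 3 arrays carrying treated RNA in Cy3 all lay below the 3 carrying it in Cy5. The mean was -0.77 ± 0.05 (SD, n = 3 sets), a 1.71-fold fall with limma's adjusted p = 0.00011. A lower ratio was found for 118 of the 10088 genes tested.

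Srebf1 encodes the SREBP that acts mainly on fatty acid genes. Its values were -0.22, -0.52 and -0.31 with treated RNA in Cy5 and -0.03, -0.32 and -0.13 with treated RNA in Cy3. All 6 lay below 0, set 2 lowest in both orientations. The mean was -0.25 ± 0.15 (SD, n = 3 sets), or a 1.19-fold fall, with limma's adjusted p = 0.031. The call rests on few arrays, since the adjusted p was 0.0505 without set 2, 0.107 without set 3 and 0.222 when only treated RNA in Cy3 was used. A transcript ratio says nothing of how much SREBP was cleaved.

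The dye term of the 6-array fit, which is the ratio with treated RNA in Cy5 minus the ratio with treated RNA in Cy3, was called for 0 of these 6 genes in limma after adjustment over all genes and had an unadjusted p under 0.05 for 2, Sqle (-0.29) and Scd1 (0.24). Its size was largest for Sqle among the 6, against a median size of 0.17 over all genes.

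**Figure D1:**
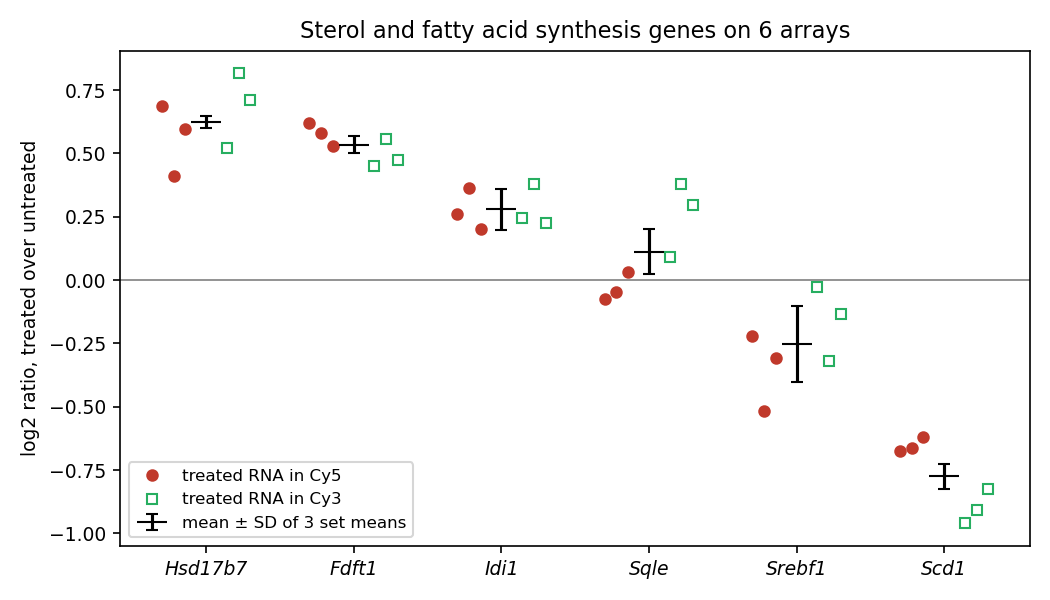
Log2 ratio of treated over untreated cells (vertical axis) for 6 genes of sterol and fatty acid synthesis, with filled circles for treated RNA in Cy5 (3 arrays) and open squares for treated RNA in Cy3 (3 arrays), sets 1 to 3 from left to right. Black bars give the mean and SD of 3 set means, from 0.62 for Hsd17b7 to -0.77 for Scd1, and only Sqle has arrays on both sides of 0.

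Hsd17b7 was set against the other genes within each array, which removes anything that moves all ratios of an array together. This contrast was named with earlier results of these data known, so its values are a description and carry no test. The ratio of Hsd17b7 exceeded that of Scd1 by 1.36, 1.07 and 1.21 with treated RNA in Cy5 and by 1.48, 1.72 and 1.53 with treated RNA in Cy3. The difference was positive on 6 of 6 arrays and averaged 1.40 ± 0.02 (SD, n = 3 sets), or 2.64-fold between the ratios. All 3 differences with treated RNA in Cy5 lay below 1.40 and all 3 with treated RNA in Cy3 above it. They averaged 1.22 and 1.58. As with Hsd17b7 alone, the small SD over sets comes from arrays of a set lying on opposite sides of the mean. For Hsd17b7 alone, however, the sides did not follow the dye. A dye effect particular to 1 gene is not removed by a difference within an array.

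Against the sterol synthesis genes the distances were shorter. Hsd17b7 minus Fdft1 averaged 0.09 ± 0.06 and ranged from -0.17 to 0.26 over arrays, so that it was positive on 5 of 6. Hsd17b7 minus Idi1 averaged 0.34 ± 0.10, with 0.05 on the Cy5 array of set 2 and 0.28 to 0.49 on the other five. Hsd17b7 minus Sqle averaged 0.51 ± 0.08 and Hsd17b7 minus Srebf1 0.88 ± 0.15, both positive on 6 of 6 arrays. Among these genes Fdft1 had the profile nearest to Hsd17b7 over the 6 arrays, with a root mean square distance of 0.17 log2 units, and Scd1 the farthest, with 1.41. In order of their mean ratios, the neighbours Hsd17b7 and Fdft1 were separated by less than the spread of Hsd17b7 over arrays, Fdft1 did not overlap Idi1, Idi1 and Sqle overlapped over arrays, as did Sqle and Srebf1, and Srebf1 and Scd1 did not.

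**Figure D2:**
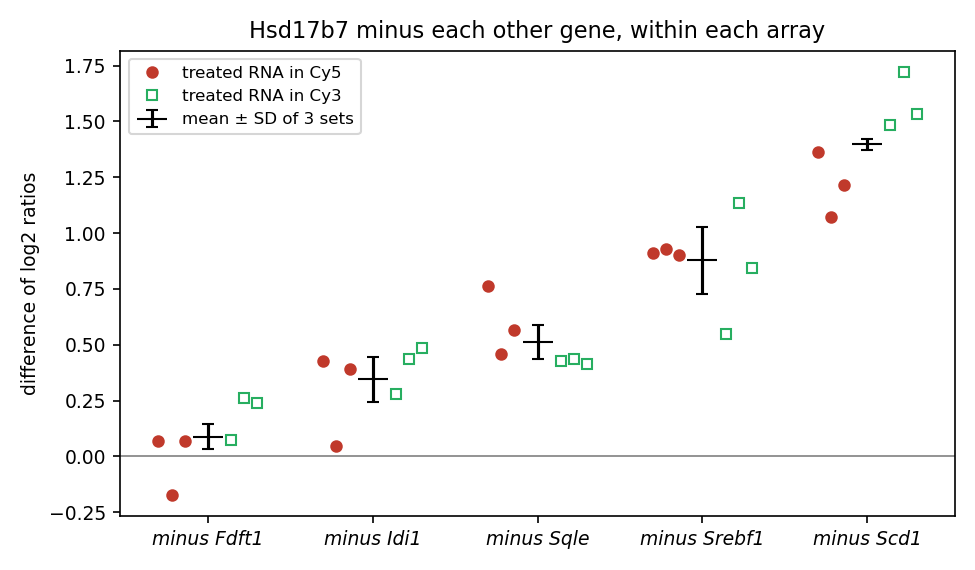
Difference between the log2 ratio of Hsd17b7 and that of each other gene (horizontal axis) within each array, with filled circles for treated RNA in Cy5, open squares for treated RNA in Cy3 and black bars for mean and SD over 3 sets. The difference averages 0.09 for Fdft1 and 1.40 for Scd1, with Idi1, Sqle and Srebf1 between them.

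Over all genes measured on 6 arrays, the profiles nearest to Hsd17b7 among 8854 named genes were those of Eaf1, an elongation factor partner, Tnfsf9, the ligand of the costimulatory receptor 4-1BB, and Crlf2, a cytokine receptor subunit, at distances of 0.08 to 0.09 log2 units. Nearest to Scd1 were the maintenance DNA methyltransferase gene Dnmt1 (0.04), the bromodomain gene Brd3 (0.07) and the cyclin-dependent kinase inhibitor gene Cdkn2c (0.08). The ratio of Dnmt1 averaged -0.77 ± 0.04 (SD, n = 3 sets). The distance is a likeness of size and direction over 6 arrays of 1 comparison.

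Of 22 listed sterol synthesis enzymes, 13 were tested, of which 7 rose, 1 fell and 5 were not called, with a median log2 ratio of 0.28. Of all genes tested, 17.3% were called higher and 16.8% lower, around a median of -0.01. The 7 include Hsd17b7, Fdft1 and Idi1, and without the 4 measured genes described above, 4 of 9 rose and 1 fell, with a median of 0.07. Ggps1, which makes the geranylgeranyl diphosphate used for prenylation, had the highest ratio of the list at 0.76 ± 0.04, or 1.70-fold (SD, n = 3 sets), ahead of Hsd17b7. Msmo1, the methylsterol oxidase of the same demethylation sequence as Hsd17b7, rose by 0.57 ± 0.12, with a range of 0.35 to 0.76 over arrays. Limma's adjusted p was 0.000106 for Ggps1 and 0.000929 for Msmo1, and both were higher on 6 of 6 arrays. Picked out after their values were seen, Cyp51, the lanosterol demethylase, stood at 0.40 ± 0.08 (adjusted p = 0.00208) and Sc5d, a late sterol desaturase, at 0.41 ± 0.08 (adjusted p = 0.00175).

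The enzymes of the mevalonate steps had ratios near or below 0. Mvk, the first kinase, had a ratio of -0.06 ± 0.10 (limma's adjusted p = 0.439) and Mvd, which decarboxylates the product, one of 0.07 ± 0.05 (adjusted p = 0.292). Pmvk, the second kinase, was the enzyme that fell, at -0.23 over 4 measured arrays of 2 sets, and its adjusted p of 0.0362 became 0.133 with zeros kept as values. The late enzyme Tm7sf2, a sterol reductase, stood at -0.04 ± 0.10 and was not called. Dhcr7, which makes cholesterol from its immediate precursor, had ratios of 0.28, 0.25 and 0.25 with treated RNA in Cy5 and of -0.26, -0.26 and -0.19 with treated RNA in Cy3. The 2 orientations thus lay on opposite sides of 0, and the mean of 0.01 ± 0.02 (SD, n = 3 sets) and its adjusted p of 0.886 describe neither. The dye term for Dhcr7 was 0.50, with limma's adjusted p = 0.0314, and no direction is given for this gene. Ebp, a sterol isomerase, was measured on 1 array and not tested.

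Of 32 listed genes of fatty acid synthesis, elongation, desaturation and activation, 19 were tested, of which 3 rose, 8 fell and 8 were not called. The median ratio was -0.00119. Without Scd1, 3 of 18 rose and 7 fell, against 17.3% of all genes called higher and 16.8% lower. Fads1, which encodes the delta-5 desaturase of polyunsaturated fatty acids, had a log2 ratio of -0.41 ± 0.06, a 1.33-fold fall (limma's adjusted p = 0.00142). Fads2, the delta-6 desaturase, picked out after its value was seen, stood at -0.38 ± 0.05 (adjusted p = 0.00174). Its ratios were -0.22, -0.14 and -0.25 with treated RNA in Cy5 and -0.59, -0.50 and -0.56 with treated RNA in Cy3. The orientations did not overlap, and the dye term was 0.35 (limma's adjusted p = 0.0502). With treated RNA in Cy5 alone the mean was -0.20 (limma's adjusted p = 0.0463). Fads1 and Fads2 were both lower on 6 of 6 arrays, as were 17.4% of all genes measured on every array. Fasn, the fatty acid synthase gene, stood at -0.27 ± 0.08 (adjusted p = 0.00869, and 0.0766 with treated RNA in Cy3 alone), while Acly, which supplies cytosolic acetyl-CoA, was at 0.00 ± 0.06 (adjusted p = 0.962). Scd2, a second stearoyl-CoA desaturase gene, had no measured value.

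The acyl-CoA synthetases, which activate fatty acids, went opposite ways. Acsl4, which prefers arachidonate, had log2 ratios of 0.62 to 0.84 over the arrays and rose by 0.71 ± 0.03, or 1.64-fold (limma's adjusted p = 0.000132). Acsl3, an enzyme of lipid droplets, ranged from -0.60 to -0.40 and fell by 0.54 ± 0.04, or 1.45-fold (adjusted p = 0.000407). Acsl5 stood at -0.19 ± 0.02 (adjusted p = 0.0211, but 0.055 without set 1 and 0.119 without set 3), and each of these 3 genes was on one side of 0 on 6 of 6 arrays. Thrsp, a regulator of lipogenesis, stood at 0.21 over 2 sets with an adjusted p of 0.0475, while its other probe averaged -0.19 over 2 arrays, and under 8 of 10 alternatives that gave it a value it was no longer called. Elovl2, an elongase, stood at -0.25 ± 0.18 (adjusted p = 0.0489) by the probe measured on all arrays, and its other probe averaged 0.09 over 5 arrays. Elovl4, another elongase, stood at -0.17 ± 0.05 (adjusted p = 0.0353), and both were lower on 5 of 6 arrays. Hsd17b12, the ketoacyl reductase of elongation, stood at 0.15 ± 0.04 (adjusted p = 0.0486) and was higher on 6 of 6 arrays. The calls of Elovl2, Elovl4 and Hsd17b12 were lost on leaving out any 1 set, with adjusted p from 0.0588 to 0.226.

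Of 18 genes listed for SREBP processing and turnover, 6 were tested, of which 3 rose and 2 fell, with a median of 0.19. The 3 that rose were Syvn1, Vcp and Ufd1. Srebf2, Scap, Insig1, Insig2 and Mbtps2 were not analysed, so the counts leave out most of the genes that carry, hold back or cleave SREBPs. Without Srebf1, 3 of 5 rose and 1 fell, at a median of 0.24, against 17.3% of all genes called higher and 16.8% lower. Mbtps1, the site-1 protease that makes the first cut in SREBPs in the Golgi, was lower on 6 of 6 arrays and fell by 0.26 ± 0.02, or 1.20-fold (limma's adjusted p = 0.00543, and 0.0584 without set 3). Syvn1, a ubiquitin ligase of endoplasmic reticulum-associated degradation, had ratios of 0.92 to 1.05 and rose by 0.98 ± 0.06, or 1.97-fold (adjusted p = 5.26e-05). Vcp, the ATPase that extracts proteins from that membrane, rose by 0.27 ± 0.04 (adjusted p = 0.00576). Syvn1 and Vcp act on many proteins besides those of sterol control.

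Of 22 genes of sterol uptake, transport, esterification, oxysterols and liver X receptors, 12 were tested, of which 3 rose and 4 fell, at a median of 0.06, against 17.3% of all genes called higher and 16.8% lower. Npc2, the lysosomal carrier of cholesterol, rose by 1.10 ± 0.02, or 2.14-fold (limma's adjusted p = 2.45e-05), and its 2 probes averaged 1.11 and 1.09. Its membrane partner Npc1 averaged 0.28 ± 0.06 (adjusted p = 0.00648) over 2 probes that disagreed, with means of -0.02 and 0.58. Npc1 was not called with treated RNA in Cy5 alone (0.11, adjusted p = 0.452), without set 3 (adjusted p = 0.0538) or with the set number as a replicate block (adjusted p = 0.0651). Cyp27a1, the sterol hydroxylase of mitochondria, ranged from -0.80 to -0.54 and fell by 0.65 ± 0.04, or 1.57-fold (adjusted p = 0.000202). The endocytic receptor gene Lrp1 fell by 0.55 ± 0.07 (adjusted p = 0.00053). Nr1h3, the liver X receptor alpha, stood at 0.26 ± 0.05 (adjusted p = 0.00704), while its efflux targets Abca1 (0.10 ± 0.13, adjusted p = 0.26) and Abcg1 (0.06 ± 0.03, adjusted p = 0.341) were not called.

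**Figure D3:**
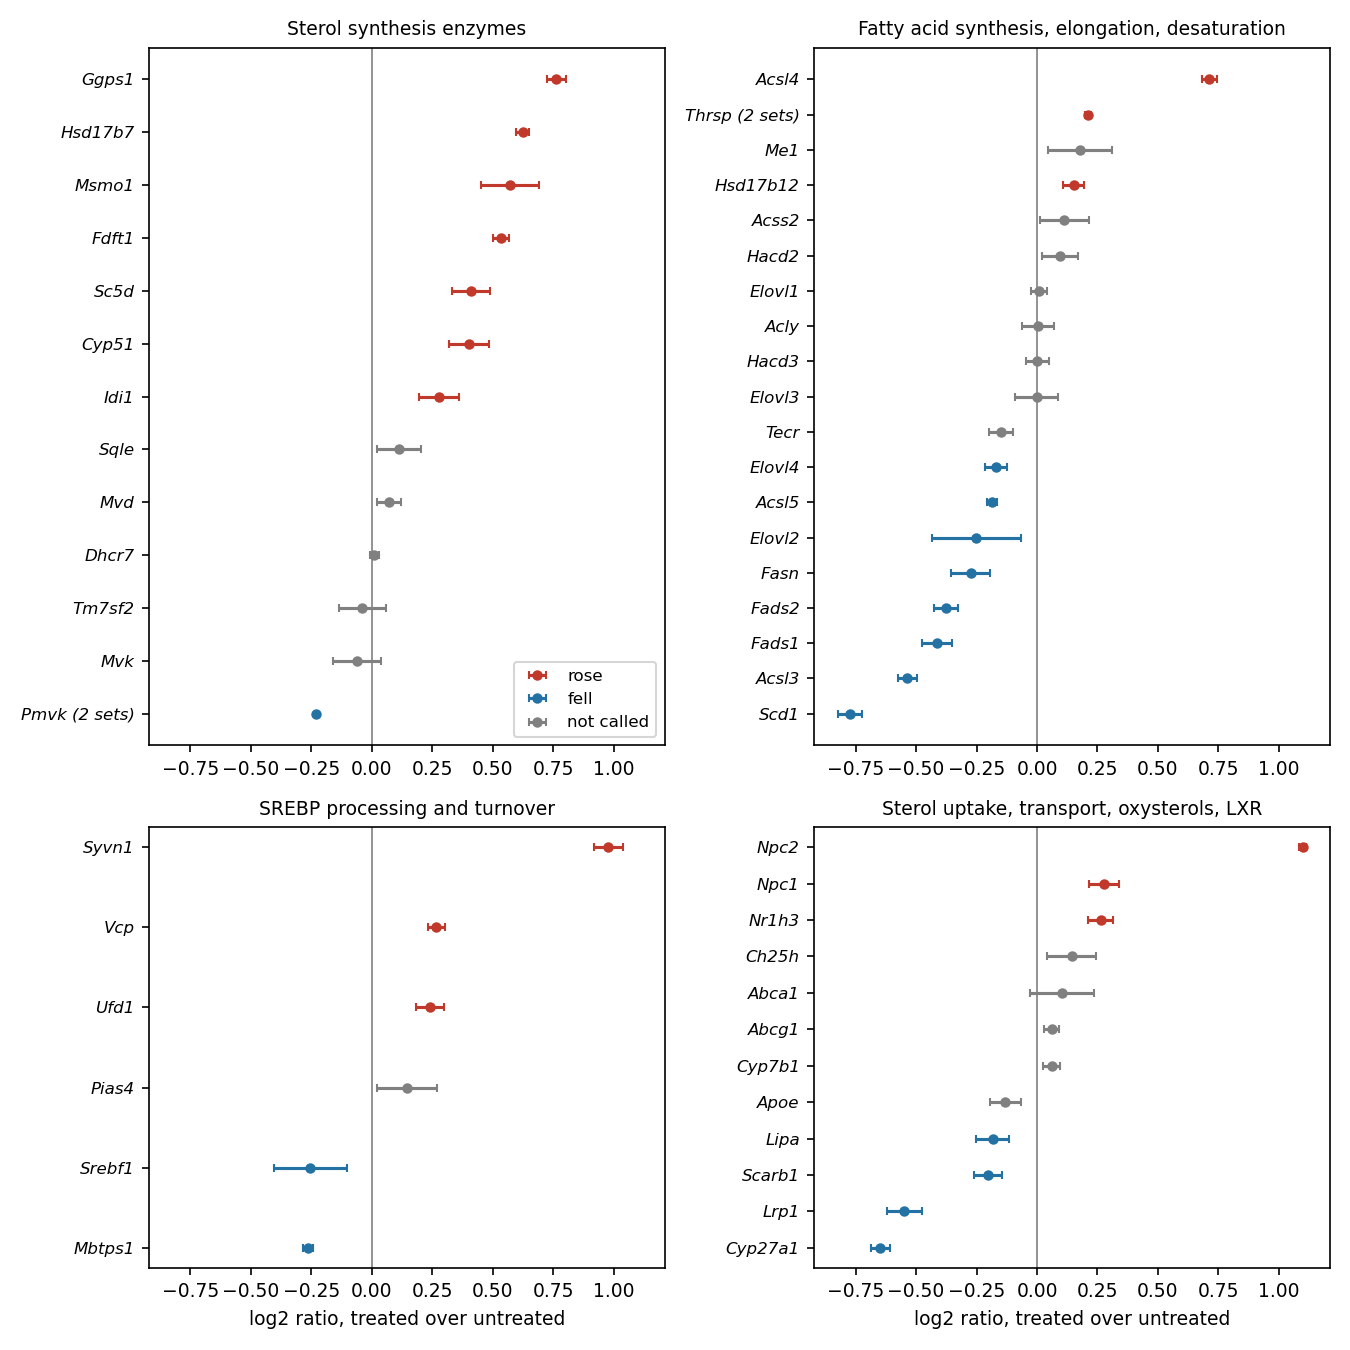
Mean log2 ratio of treated over untreated cells (horizontal axis) with the SD over set means for each tested gene of 4 lists, red where it rose, blue where it fell and grey where limma's adjusted p was 0.05 or more. In the sterol list 7 of 13 genes are red, and in the fatty acid list 8 of 19 are blue, led by Scd1 at -0.77.

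The rises and falls of the sterol and fatty acid genes were moderate beside the whole response. Among all genes called, 289 rose and 47 fell by more than 2-fold, and none of the 6 genes reached that size. Hsd17b7 and Fdft1 were exceeded by 5.07% and 6.22% of the genes tested and Idi1 by 11.8%, whereas 1.17% lay below Scd1 and 11.8% below Srebf1. The median size of change among the 3448 called genes was 0.35 on the log2 scale, which Hsd17b7, Fdft1 and Scd1 passed and Idi1 and Srebf1 did not.

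**Figure D4:**
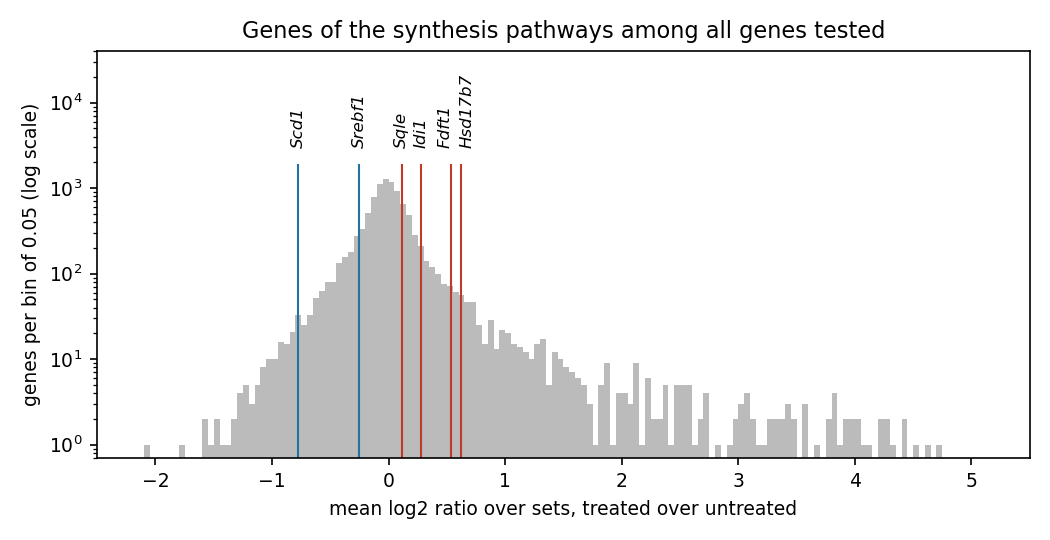
Number of genes (vertical axis, log scale) by mean log2 ratio of treated over untreated cells (horizontal axis) for 10088 genes tested, with lines at the 6 genes of sterol and fatty acid synthesis, red above 0 and blue below 0. Scd1 at -0.77 lies in the lower tail and Hsd17b7 at 0.62 on the upper shoulder, short of the far upper tail.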

How the data were processed

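Total RNA of treated and untreated RAW 264.7 cells was compared on 6 two-colour arrays. The values deposited by the authors are log2 ratios, read as such because the largest was 6.64, log2 of 100. The scanner, the background method and the dye normalization are not stated in the sources used, and no intensities were used. Arrays of opposite orientation correlated at -0.80 to -0.43 as deposited, so the sign was turned on the arrays whose treated RNA was in Cy3. Values of exactly 0 (8.16% to 13.9% of features per array) were treated as not measured. Of 16281 features, 13738 had 1 gene symbol, 52 several (not named) and 2491 none, and 13694 matched RefSeq GRCm38.p6 by gene identifier.

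A set mean needed both arrays. A gene's value was the mean over probes measured on all 6 arrays, otherwise its most complete probe, and a gene needed 2 set means. Set means were tested against 0 with lmFit and eBayes (limma 3.58.1, R 4.3.3) with Benjamini-Hochberg adjustment over 10088 genes, a procedure checked on simulated data. The simulated noise was independent between arrays apart from a dye offset. It did not include the opposed deviations of same-numbered arrays given below, so the check does not cover their effect. Precision is limited by the number of arrays. Each set counted as 1 replicate, since its arrays may carry the same extracts. The genes, the 4 lists and the tests were chosen with earlier results of these data known. Genes named beside the 6 were the 2 largest rises and 2 largest falls that passed in each list, 5 inflammatory genes and the 3 nearest profiles of Hsd17b7 and Scd1. Others are named for their role or as close calls, after their values were seen. Alternatives changed the treatment of zeros, the replicate unit, scaling, dye orientation, probe choice and the sets used.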

Additional observations from a re-analysis of the deposited data

Results flagged for a closer look

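Dhcr7 differed between the dye orientations. Its log2 ratio averaged 0.26 where Cy5 labelled the treated RNA and -0.24 where Cy3 did (3 arrays each), a difference of 0.499 with limma's adjusted p = 0.0314 over all genes.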

How the results depend on the processing

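The rises of Hsd17b7, Fdft1 and Idi1 and the fall of Scd1 kept their direction and call under all 13 alternatives, with log2 ratios of 0.57 to 0.68, 0.49 to 0.58, 0.23 to 0.31 and -0.90 to -0.65. Sqle turned to -0.0308 with treated RNA in Cy5 alone and was called under none, with adjusted p from 0.0674 to 0.692. The fall of Srebf1 was lost on the Cy3 arrays alone, leaving 1 of the 6 genes, and 1 SREBP list gene, lower there, and leaving out single sets gave 1 to 2 and 0 to 2. Leaving out single sets gave 2009 to 3395 called genes, 1084 to 1679 higher and 925 to 1721 lower. With the set number as replicate block, 3649 genes were called and all calls of the 6 genes stayed, while Npc1 (adjusted p = 0.0651) was not called. Arrays of a set were averaged because they may carry the same extracts. Over genes, the deviations of same-numbered arrays from their orientation's mean correlated at -0.256, -0.212 and -0.0999 on the turned values, so averaging narrows the SD over sets, and the 6 arrays as separate replicates gave 3789 called genes. Pmvk, the 1 sterol enzyme that fell, lost its call with zeros kept and with Cy5 alone, which left a count of 0. With the block, without set 2 and without set 3 the count was also 0, since Pmvk could not be tested there. Without set 1 it stayed called. With Cy3 alone Pmvk was not called (adjusted p = 0.0764), and the count of 1 there was Dhcr7. The 3 rises in the fatty acid list became 1 with zeros kept, after scaling, after quantile normalization, with Cy5 alone and by probe, and 1 to 2 without single sets. Its 8 falls became 5 with Cy5 alone and 5 to 6 without single sets. The 4 falls of the sterol transport list became 2 with Cy3 alone and 2 to 4 without single sets. Hsd17b7 minus Scd1 was 1.48 after quantile normalization, 1.22 with Cy5 alone and 1.58 with Cy3 alone, and Hsd17b7 minus the median of the other measured genes, 0.51, was 0.60 with Cy5 alone. Sqle was the median gene in each set mean and on each Cy5 array, so both of these last values are also Hsd17b7 minus Sqle. With Cy5 alone, Acly turned to -0.0547, Elovl4 to 0.0385 and Tm7sf2 to 0.0469, with Cy3 alone Dhcr7 turned to -0.239 (adjusted p = 0.0483, against 0.26 and 0.0198 with Cy5 alone), and leaving out single sets gave -0.0292 (set 3) to 0.0353 for Acly. The causes were not tested. Signal over background could not be assessed.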
